A study of Mus musculus with 6 samples.

Results

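The genes described here are the 4 Janus kinases (Jak1, Jak2, Jak3 and Tyk2), 4 inhibitors of the SOCS and CISH family (Socs1, Socs2, Socs3 and Cish) and 2 PIM kinases (Pim1 and Pim2). They were taken by gene name from the deposited expression table, and all 10 were found among its 54532 genes. RNA was sequenced from sorted GFP+ bone marrow cells of a mouse model of acute myeloid leukemia driven by RUNX1-ETO9a (RE9a), a shortened form of a leukemia fusion protein. The 3 WT Phf6,RE9a libraries came from leukemia in Phf6 fl/y cells, which carry a floxed but undeleted Phf6 gene, and the 3 VC Phf6,RE9a libraries from leukemia in Vav1-Cre;Phf6 fl/y cells, in which Cre driven by the Vav1 promoter deletes Phf6 in blood-forming cells. Both groups carried the RE9a-GFP retrovirus, introduced into lineage-negative cells of mid-gestation fetal liver from male donors and passed serially through male recipients. By the study's methods the male mice were young adults. Strain and the transplant passage sequenced are not given in the sources used here. Whether the libraries came from separate leukemias or mice is not stated in the labels, so the p-values below measure the spread between these libraries, which may be technical. The comparison asks how loss of Phf6 alters expression in RE9a leukemia cells.

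Janus kinases are tyrosine kinases bound to the inner tails of cytokine receptors. A cytokine that joins its receptor chains lets the kinases phosphorylate STAT transcription factors, which move to the nucleus. SOCS1, SOCS2, SOCS3 and CISH are made in response and restrain the same receptors, while PIM1 and PIM2 are serine/threonine kinases whose genes are also STAT targets and which promote survival and growth of blood cells. JAK2 with STAT5 carries signals from the receptors for erythropoietin, thrombopoietin, IL-3 and GM-CSF in myeloid cells.

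The libraries held 15675358 to 16817994 counts, and levels are given as CPM, a gene's count scaled to the library's total adjusted by trimmed mean of M values (TMM), a scale on which 3 counts correspond to at most 0.204 CPM. Changes are given as log2 fold changes (VC over WT libraries) from the quasi-likelihood test of edgeR, with p-values adjusted by Benjamini-Hochberg across 14169 tested genes and a threshold of 0.05. Phf6 itself, on chromosome X, was at 64.3 ± 7.15 CPM in WT and 20.3 ± 2.37 CPM in VC libraries (SD, n = 3 each), a log2 fold change of -1.66 (SE 0.13, adjusted p = 9.3e-05), so reads from the gene remained in the VC group. The log2 CPM of library pairs correlated at 0.975 to 0.988 within groups and at 0.872 to 0.909 across them. Of the tested genes, 3213 (22.7%) were lower and 3047 (21.5%) higher in VC libraries. Scaling by total counts, tried after seeing the data, gave 2476 lower and 4047 higher genes and moved the median of all genes from 0.01 to 0.16 on the log2 scale.

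Of the 10 genes, 9 were lower in VC Phf6,RE9a libraries and 0 were higher, against 22.7% of all tested genes called lower and 44.2% called in either direction. At an adjusted p under 0.01 the lower genes were 6, namely Jak2, Jak3, Socs1, Socs2, Cish and Pim2, against 14.9% of tested genes. The median log2 fold change of all 10 genes was -0.48, beside 0.01 over all genes tested. In the same 9 genes every VC library lay under every WT library, an order seen in 28.4% of tested genes, and Socs3 was the exception on both counts. The reverse order, seen in 28.9% of tested genes, was seen in 0 of the 10. Pim2 and Socs1 fell at least 2-fold, as 11.5% of tested genes did, while the other 7 genes that fell changed by less. Under total-count scaling 7 of the 10 were called lower. The median of the 10 relative to that of all genes was -0.49 under both scalings. A change of scaling shifts all genes nearly alike, so this value could not differ much and does not test the scaling. In bulk RNA a smaller share of expressing cells and less RNA per cell cannot be told apart.

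**Figure D1:**
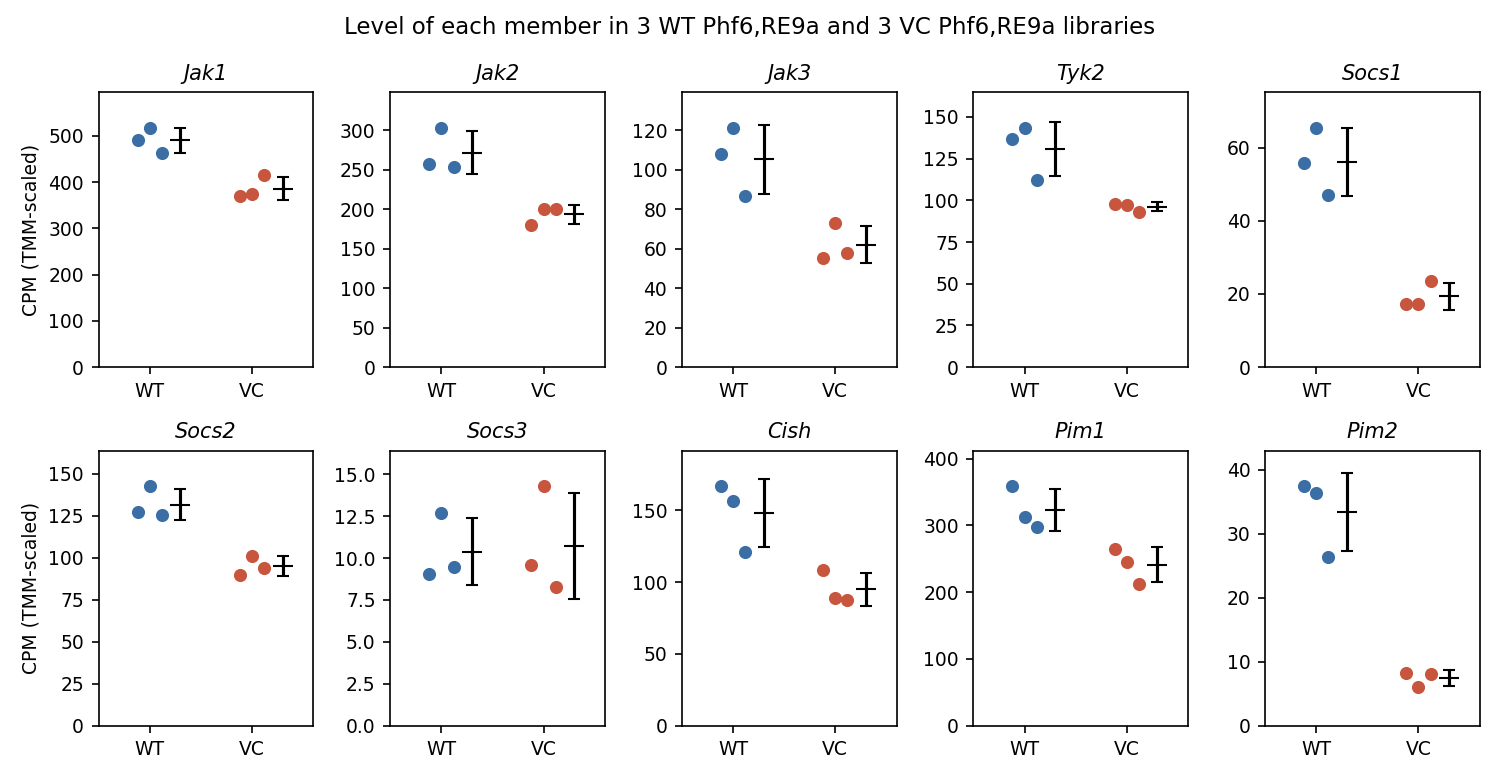
TMM-scaled CPM (vertical axes, linear from 0) of each of the 10 genes in the 3 WT (blue) and 3 VC (red) Phf6,RE9a libraries, with the group mean and SD as black bars beside the points. The 2 groups are apart in every panel except that of Socs3, where WT libraries lie between 9.02 and 12.7 CPM and VC libraries between 8.26 and 14.3 CPM.

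All 4 Janus kinase transcripts fell. Jak2 (chromosome 19, 29251828 to 29313080, plus strand), the kinase of the erythropoietin and IL-3 family receptors, was at 258, 303 and 254 CPM in WT libraries 1, 2 and 3 and at 180.0, 200.5 and 200.2 CPM in VC libraries 11, 12 and 13. The WT library with the least Jak2 was still above each VC library. Its log2 fold change was -0.49 (SE 0.10, 95% interval -0.72 to -0.26, adjusted p = 0.00618), a ratio of group means of 1.40.

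Jak1 (chromosome 4, 101152367 to 101265282, minus strand), which serves interferon, gp130 and common gamma chain receptors, was at 492, 517 and 463 CPM in WT and 370, 375 and 414 CPM in VC libraries. The groups did not overlap, and VC library 13 was the closest to the WT range. The fall was the smallest of the 9, with a log2 fold change of -0.35 (SE 0.09, adjusted p = 0.0186), and 57.7% of tested genes changed by more in either direction. The call on Jak1 was lost without VC library 11 (log2 fold change -0.31, adjusted p = 0.0891), without VC library 12 (-0.32, adjusted p = 0.0770), and under total-count scaling (-0.20, adjusted p = 0.117).

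Jak3 (chromosome 8, 71676296 to 71690575, plus strand), which pairs with the common gamma chain Il2rg, was at 108, 121 and 86.8 CPM in WT and 55.4, 73.1 and 57.9 CPM in VC libraries. Library 2 was the highest of the WT group and library 12 of the VC group, and the groups did not overlap. Its log2 fold change was -0.76 (SE 0.15, 95% interval -1.12 to -0.41, adjusted p = 0.00562). Jak3 shares 404 of its 5352 exon bases with Insl3 on the same strand, a gene listed with 6 to 57 counts in these libraries.

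Tyk2 (chromosome 9, 21104068 to 21131243, minus strand), which acts at type I interferon, IL-10 and IL-12 family receptors, was at 137, 143 and 112 CPM in WT and 98.1, 97.4 and 93.1 CPM in VC libraries. The VC libraries were close together, with an SD of 2.70 CPM against 16.3 CPM in WT. The change was -0.44 on the log2 scale (SE 0.10, 95% interval -0.69 to -0.20, adjusted p = 0.0113).

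Summed over the family, Janus kinase transcripts were at 160 ± 14.3 FPKM (counts scaled by gene length and library size) in WT and 116 ± 5.14 FPKM in VC libraries (SD, n = 3 each; exact two-sided permutation p = 0.1, the smallest that 3 against 3 libraries allow). Within this sum Jak1 made up 42.4 ± 1.39% in WT and 45.5 ± 1.93% in VC libraries (exact p = 0.2). Jak3 made up 12.2 ± 1.02% and 9.87 ± 1.35% (exact p = 0.2). Jak2 made up 33.6 ± 1.26% and 32.7 ± 0.636% (exact p = 0.3), and Tyk2 11.8 ± 0.680% and 11.9 ± 0.825% (exact p = 0.9). The larger fall of Jak3 than of Jak1, a difference of -0.41 on the log2 scale, had an exact p of 0.2, and the ranges of the ratio overlapped between the groups.

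Of the SOCS/CISH genes, Socs1, Socs2 and Cish fell, and Socs1 had the largest change. Socs1 (chromosome 16, 10782240 to 10785536, minus strand), whose protein binds Janus kinases and blocks their activity, was at 55.9, 65.4 and 47.0 CPM in WT libraries, from 776 to 964 counts. In VC libraries it was at 17.2, 17.3 and 23.5 CPM, from 292 to 396 counts. The highest VC library held less Socs1 than the lowest WT library, with SDs of 9.22 CPM in WT and 3.61 CPM in VC. The log2 fold change was -1.53 (SE 0.17, 95% interval -1.93 to -1.13, adjusted p = 0.00042), a ratio of means of 2.90, and 14.5% of tested genes changed by more in either direction.

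Socs2 (chromosome 10, 95385362 to 95417180, minus strand), best known as an inhibitor of growth hormone signaling, was at 127, 142 and 125 CPM in WT and 89.4, 101 and 93.8 CPM in VC libraries. The groups did not overlap and both were narrow, with SDs of 9.43 and 5.97 CPM. The fitted log2 fold change was -0.47 (SE 0.09, 95% interval -0.68 to -0.26, adjusted p = 0.00438).

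Cish (chromosome 9, 107296026 to 107302784, plus strand), a STAT5 target whose protein competes for docking sites on receptors, was at 167, 157 and 121 CPM in WT and 108, 89.0 and 87.8 CPM in VC libraries. WT library 3 and VC library 11 were the closest across the groups, which did not overlap. Cish had a log2 fold change of -0.64 (SE 0.14, 95% interval -0.97 to -0.31, adjusted p = 0.0085).

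Socs3 (chromosome 11, 117966079 to 117970047, minus strand), the STAT3-induced inhibitor of gp130 and G-CSF receptor signaling, was at 9.02, 12.7 and 9.44 CPM in WT and 9.56, 14.3 and 8.26 CPM in VC libraries. The ranges overlapped, and VC library 12 held the highest value of all 6. The log2 fold change was 0.04 (SE 0.25, adjusted p = 0.906), with a 95% interval of -0.55 to 0.63 that leaves room for a change in either direction, from 139 to 245 counts per library. Its sign turned without WT library 1 (-0.05), without WT library 3 (-0.03) and without VC library 12 (-0.22).

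STAT5 and STAT3 bind sites of the form TTCNNNGAA, which reads the same on both strands, so the promoter windows of the 10 genes were searched for these letters. RefSeq windows on GRCm38.p6, each 300 bases long with 250 before and 50 after an annotated start, were matched for 9 of the 10 genes, with 2 windows for Pim1 and no entry for Socs2. The Cish window held 2 matches and the Socs3 window 1, while the windows of Jak1, Jak2, Jak3, Tyk2, Socs1, Pim1 and Pim2 held 0 matches. Of all 32851 RefSeq windows, 8.3% held at least 1 match and 0.457% at least 2. The windows of Cish and Socs3 are printed because they hold the matches, which are in capitals. The Cish window is chr9:107296409-107296708 on the plus strand, around a RefSeq start 633 bases inside the deposited gene, and its matches TTCCTGGAA and TTCTTGGAA begin at bases 1 and 12 from that start. The Socs3 window is chr11:117969317-117969616 on the minus strand, around a RefSeq start 681 bases inside the deposited gene, and its match TTCTTAGAA begins 154 bases before that start. A match describes letters in a window and does not show that a factor bound there.
Cish: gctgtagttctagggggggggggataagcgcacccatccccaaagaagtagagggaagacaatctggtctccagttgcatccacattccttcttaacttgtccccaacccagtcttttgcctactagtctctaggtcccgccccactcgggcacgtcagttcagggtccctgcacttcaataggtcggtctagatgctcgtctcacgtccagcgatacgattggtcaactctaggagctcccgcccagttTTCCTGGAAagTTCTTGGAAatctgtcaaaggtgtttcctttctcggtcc
Socs3: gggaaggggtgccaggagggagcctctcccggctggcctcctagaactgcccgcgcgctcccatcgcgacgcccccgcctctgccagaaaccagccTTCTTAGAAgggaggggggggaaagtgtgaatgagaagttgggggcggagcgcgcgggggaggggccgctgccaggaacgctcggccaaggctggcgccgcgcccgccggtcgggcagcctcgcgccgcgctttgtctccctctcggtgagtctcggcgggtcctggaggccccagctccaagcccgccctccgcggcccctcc

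The SOCS/CISH sum was 59.4 ± 7.66 FPKM in WT and 34.7 ± 0.731 FPKM in VC libraries (SD, n = 3 each; exact p = 0.1, the smallest possible). Socs1 gave 32.2 ± 1.54% of the sum in WT and 19.0 ± 3.88% in VC libraries (exact p = 0.1). Socs2 gave 23.2 ± 2.07% and 28.3 ± 1.81% and Socs3 6.01 ± 0.833% and 10.5 ± 3.02%, each with groups that did not overlap (exact p = 0.1). On counts in place of FPKM the Socs2 shares overlapped, at 35.4 to 41.4% in WT and 39.8 to 45.6% in VC libraries (exact p = 0.2). Cish held 38.6 ± 3.10% and 42.2 ± 4.70%, with overlapping ranges (exact p = 0.4). The log2 ratio of Socs1 to each other member of the family was apart between the groups (exact p = 0.1), with differences of -1.07 to Socs2, -0.90 to Cish and -1.56 to Socs3, VC minus WT.

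Both PIM genes fell. Pim2 (chromosome X, 7878262 to 7883432, plus strand), a kinase that is controlled mainly through its transcript level, was at 37.4, 36.4 and 26.4 CPM in WT libraries, from 436 to 576 counts. In VC libraries it was at 8.27, 6.001 and 8.14 CPM, from 103 to 140 counts. The groups did not overlap, and VC library 12 had the lowest level. The log2 fold change of -2.16 (SE 0.20, 95% interval -2.62 to -1.70, adjusted p = 0.00017) was the largest of the 10 genes, a ratio of means of 4.47, and 4.70% of tested genes had a lower log2 fold change. Over the 13 alternatives tried it lay between -2.31 and -1.82.

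Pim1 (chromosome 17, 29490812 to 29496111, plus strand), the first PIM kinase found and like Pim2 a site of retroviral insertion in mouse lymphomas, was at 358, 313 and 298 CPM in WT and 265, 246 and 213 CPM in VC libraries. The groups did not overlap, and WT library 3 and VC library 11 were the closest. Its log2 fold change was -0.42 (SE 0.11, 95% interval -0.69 to -0.16, adjusted p = 0.0198). The call on Pim1 was lost without WT library 1 (-0.35, adjusted p = 0.0575), without VC library 12 (-0.43, adjusted p = 0.0587), without VC library 13 (-0.34, adjusted p = 0.0739) and under total-count scaling (-0.27, adjusted p = 0.0703). In the GENCODE M21 annotation Pim1 shares 488 of 3362 exon bases with the antisense gene Gm26885, listed with 47 to 69 counts in WT and 16 to 26 in VC libraries. Without strand the reads of the pair cannot be told apart. The deposited Pim1 gene has other ends and a length of 2638 bases, so the overlap behind its counts may differ.

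Pim2 made up 8.85 ± 1.09% of PIM FPKM in WT and 2.87 ± 0.618% in VC libraries, with groups that did not overlap (exact p = 0.1). Its log2 ratio to Pim1 was -3.37 ± 0.20 in WT and -5.11 ± 0.32 in VC libraries (SD, n = 3 each; exact p = 0.1). The PIM sum, nearly all Pim1, was 134 ± 14.3 FPKM in WT and 92.9 ± 10.2 FPKM in VC libraries (exact p = 0.1).

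**Figure D2:**
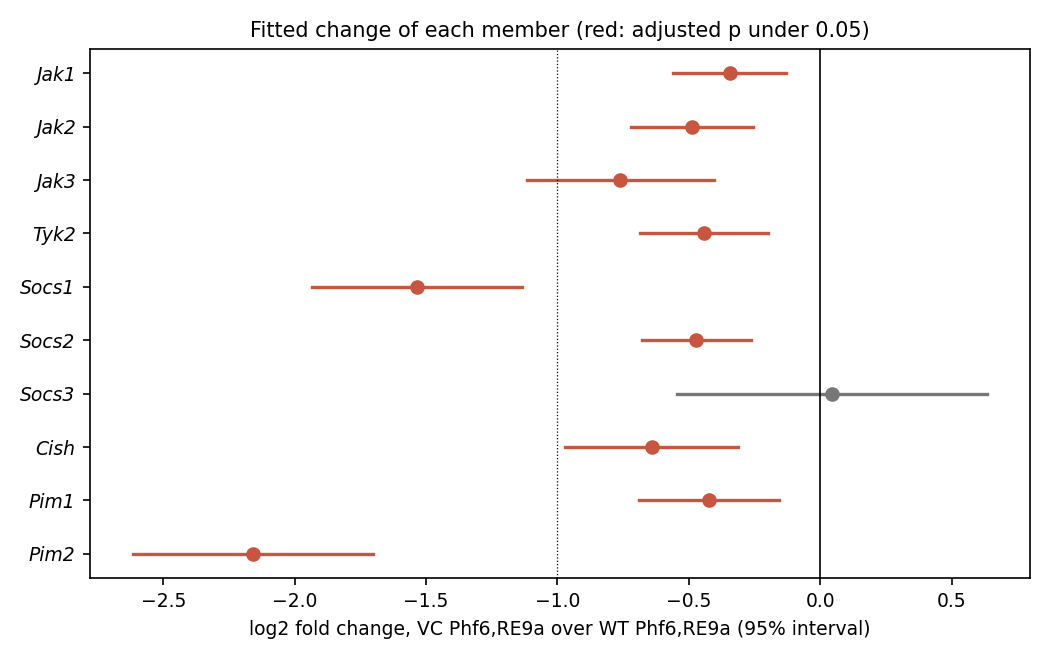
Log2 fold change, VC over WT libraries (horizontal axis) with its 95% interval for each of the 10 genes, in red where edgeR's adjusted p was under 0.05 and in grey otherwise, with a dotted line at a 2-fold fall. The intervals of Socs1 and Pim2 lie wholly beyond the 2-fold line and that of Socs3 spans 0.

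Per length, Pim1 was the most abundant of the 10 transcripts and Jak1 and Jak2 followed in both groups. In WT libraries Pim1 was at 122 ± 12.5 FPKM, Jak1 at 67.5 ± 3.89 FPKM and Jak2 at 53.6 ± 5.34 FPKM, with no overlap between these neighbours. Cish (23.0 ± 3.82 FPKM), Jak3 (19.6 ± 3.25), Socs1 (19.2 ± 3.17) and Tyk2 (18.9 ± 2.42) came next, each overlapping its neighbour in level. Socs2 at 13.7 ± 0.970 FPKM and Pim2 at 11.9 ± 2.21 FPKM overlapped each other, and Socs3 was lowest at 3.57 ± 0.682 FPKM.

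In VC libraries the order kept Pim1 (90.3 ± 10.3 FPKM), Jak1 (52.7 ± 3.11) and Jak2 (37.99 ± 2.33) on top. Cish (14.6 ± 1.79 FPKM), Tyk2 (13.8 ± 0.451), Jak3 (11.5 ± 1.82) and Socs2 (9.82 ± 0.658) followed, each overlapping its neighbour. Socs1, level with Jak3 and Tyk2 in WT libraries, was below Socs2 in VC libraries, at 6.57 ± 1.19 FPKM and with no overlap. Pim2, above Socs3 in each WT library, overlapped it at the foot of the VC order, with 2.64 ± 0.438 FPKM for Pim2 and 3.66 ± 1.10 FPKM for Socs3.

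Inhibitor transcripts were also compared with those of the kinases. The SOCS/CISH sum per Janus kinase sum in FPKM was 0.387, 0.378 and 0.350 in WT and 0.318, 0.296 and 0.284 in VC libraries. The groups were apart, with means of 0.371 ± 0.0192 and 0.299 ± 0.0176 (exact p = 0.1, the smallest possible). Within the SOCS/CISH sum only Socs1 had a smaller mean share in VC (19.0 ± 3.88%) than in WT libraries (32.2 ± 1.54%). The lower ratio concerns sums and need not hold for each inhibitor. Shares of the family sum do not give each inhibitor's level per Janus kinase. Such levels, and a ratio without Socs1, were not tested. The PIM sum per Janus kinase sum was 0.840 ± 0.0930 in WT and 0.804 ± 0.121 in VC libraries, with overlapping ranges (exact p = 0.7).

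**Figure D3:**
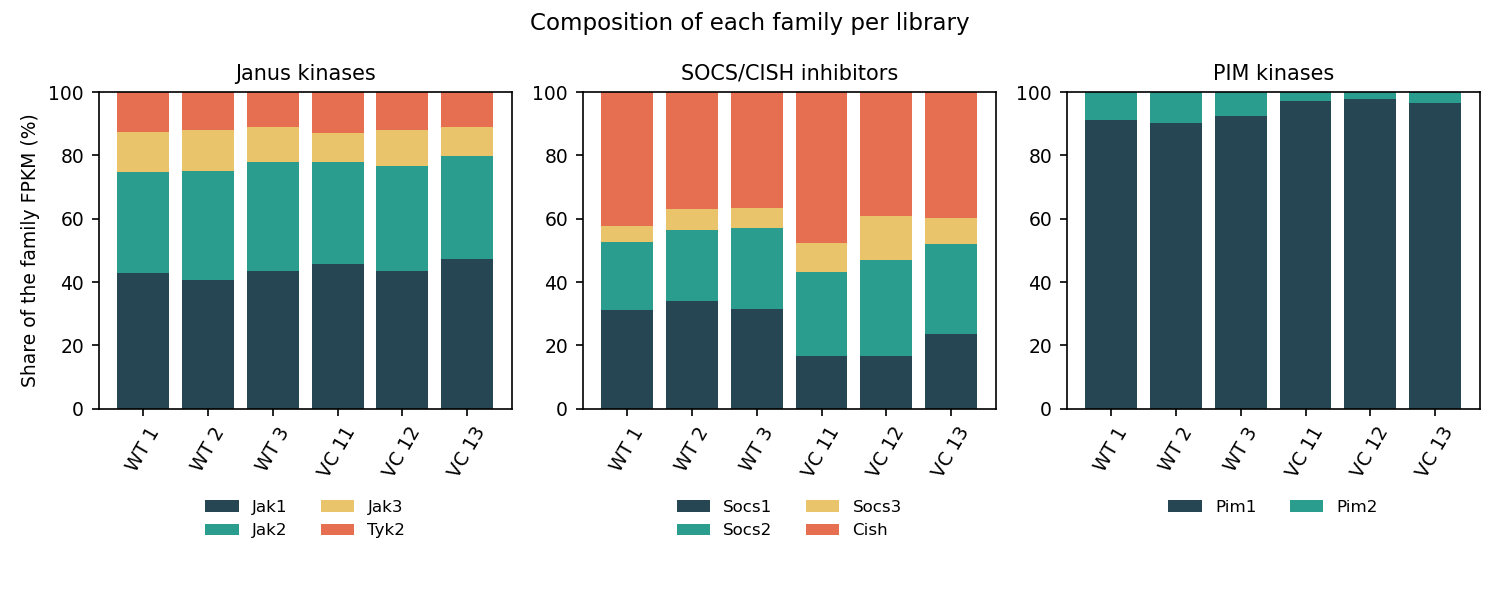
Share of each gene in the summed FPKM of its family (vertical axes, percent) in each of the 6 libraries, 1 stacked bar per library. Socs1 takes 31.2 to 33.9% of the SOCS/CISH bar in WT and 16.7 to 23.5% in VC libraries, and Pim2 takes 7.71 to 9.88% of the PIM bar in WT and 2.25 to 3.49% in VC libraries.

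Of 7 STAT genes, the transcription factors that Janus kinases activate, 4 were lower and 0 higher, beside 22.7% and 21.5% of all tested genes. The median log2 fold change of the 7 was -0.31. Stat3, the factor of gp130 receptors, fell by 0.71 on the log2 scale (SE 0.08, adjusted p = 0.000505), and Stat5a, a main driver of Cish and Pim1 transcription, by 0.47 (SE 0.10, adjusted p = 0.00862). Stat5b fell by 0.31 (SE 0.09, adjusted p = 0.0240), a call that was lost without WT library 1 (adjusted p = 0.0507) and without VC library 11, 12 or 13 (adjusted p = 0.0940, 0.0640 and 0.0856). Under total-count scaling neither Stat5a (adjusted p = 0.0503) nor Stat5b (adjusted p = 0.168) was called. Stat4, the factor of the IL-12 receptor, fell by 4.50 (SE 0.73, adjusted p = 0.00222) from 16.7 ± 12.6 CPM to 0.728 ± 0.598 CPM. Stat2 and Stat6 had log2 fold changes of 0.14 and -0.09 and were not called. Without WT library 2, however, 2 STAT genes were called higher, among them Stat2 (0.32, adjusted p = 0.0185).

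The remaining members of the SOCS and PIM families were mixed. Of 4 tested, Socs4 (log2 fold change -0.69, SE 0.08, adjusted p = 0.000584) and Socs7 (-0.57, SE 0.09, adjusted p = 0.00239) were lower and 0 were higher. Among all tested genes, 22.7% were lower and 21.5% higher. Socs6 was at -0.24 (adjusted p = 0.190) and Pim3, the third PIM kinase, at 0.09 (adjusted p = 0.703), so neither was called. Pim3 was at 36.001 ± 7.96 CPM in WT and 38.2 ± 2.14 CPM in VC libraries, beside the 4.47-fold difference in Pim2. Socs5 had 1, 1 and 3 counts in WT and 8, 14 and 3 in VC libraries and was too low to be tested. The SOCS box of these inhibitors recruits a ubiquitin ligase made of elongin B and C, Cul5 and Rnf7, and of these 4 genes Elob (0.50, SE 0.08, adjusted p = 0.00189) and Eloc (0.37, SE 0.09, adjusted p = 0.0152) were higher and 0 lower. The call on Eloc was lost without WT library 1 (adjusted p = 0.0524) and without VC library 13 (adjusted p = 0.0683).

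Other inhibitors of the pathway were lower for 4 of 12 genes (33.3%, beside 22.7% of all tested genes) and higher for 0, with a median of -0.02. Without VC library 13, with at least 10 counts required in every library and under total-count scaling, 1 was higher. Sh2b3, the adaptor LNK that restrains JAK2, fell by 1.70 on the log2 scale (SE 0.15, adjusted p = 0.000132), from 118 ± 23.1 CPM to 36.3 ± 2.26 CPM. Ptpn2, a phosphatase of JAK1 and JAK3, fell by 1.18 (SE 0.11, adjusted p = 0.000199). Ptpn6, the phosphatase SHP-1, was at -0.03 (SE 0.11, adjusted p = 0.861), with 159 ± 18.5 CPM in WT and 157 ± 10.5 CPM in VC libraries, and its sign turned under total-count scaling (0.12).

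Receptor chains upstream of the kinases changed in both directions. Of 22 class I cytokine receptor genes tested of 30, 9 were higher and 7 lower, beside 21.5% and 22.7% of all tested genes. The median log2 fold change of the 22 was 0.67. Il2rg, the common gamma chain that JAK3 binds, was at 147 ± 14.2 CPM in WT and 42.7 ± 3.32 CPM in VC libraries, a log2 fold change of -1.79 (SE 0.11, adjusted p = 3.7e-05). Csf2rb, the common beta chain that JAK2 binds, had a log2 fold change of -0.84 (SE 0.14, adjusted p = 0.00263) and Csf2rb2, its IL-3 specific copy, of -1.57 (SE 0.16, adjusted p = 0.000236), but the copies are near-identical and how reads were split between them is uncertain. Lifr, the receptor for leukemia inhibitory factor that JAK1 binds, rose from 1.18 ± 0.633 CPM to 74.9 ± 12.4 CPM (log2 fold change 5.98, SE 0.33).

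Of 9 class II receptor genes tested of 10, 3 were higher and 1 lower, with a median of 0.26. Among all tested genes 21.5% were higher, 22.7% lower and 44.2% called in either direction. The number of class II calls thus does not set these receptors apart from all tested genes. Il22ra1, which JAK1 serves, had 0 counts in the 3 WT libraries and 1127, 1043 and 1152 in the VC libraries, at least 321-fold higher in VC against a floor of 3 counts per library. Ifnlr1, the interferon lambda receptor, rose by 5.18 on the log2 scale (SE 0.21), and Il10ra, another JAK1 partner, fell by 2.72 (SE 0.30, adjusted p = 0.000363). Ifnar2 was at 0.29 (SE 0.11, adjusted p = 0.0593), and it was called higher without WT library 2 (0.37, adjusted p = 0.0119) and under total-count scaling (0.43, adjusted p = 0.0126). With at least 10 counts required in every library, 1 class II receptor gene was higher.

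Ligands of these receptors were lower for 4 of the 7 genes tested of 28 and higher for 1, with a median of -0.71. The shares of all tested genes were 22.7% lower and 21.5% higher. The higher gene, Clcf1, named after its values were seen, was at 0.361 ± 0.224 CPM in WT and 1.12 ± 0.299 CPM in VC libraries. The count of higher ligands was 0 without WT library 2 or 3, without VC library 11, 12 or 13, with limma on log2(FPKM + 1) and with at least 10 counts required in every library, and under this last filter 2 were lower. Lif was at 209, 63.8 and 107 CPM in WT and 0.649, 0.816 and 0.238 CPM in VC libraries, and Il6 at 33.9, 28.4 and 27.1 CPM in WT and 1.18, 1.05 and 0.297 CPM in VC libraries. Il4 fell by 0.62 on the log2 scale (SE 0.14, adjusted p = 0.00998). Osm, oncostatin M, was at -0.71 (SE 0.28, adjusted p = 0.0754) with overlapping groups, and without WT library 2 it was called lower (adjusted p = 0.00149).

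**Figure D4:**
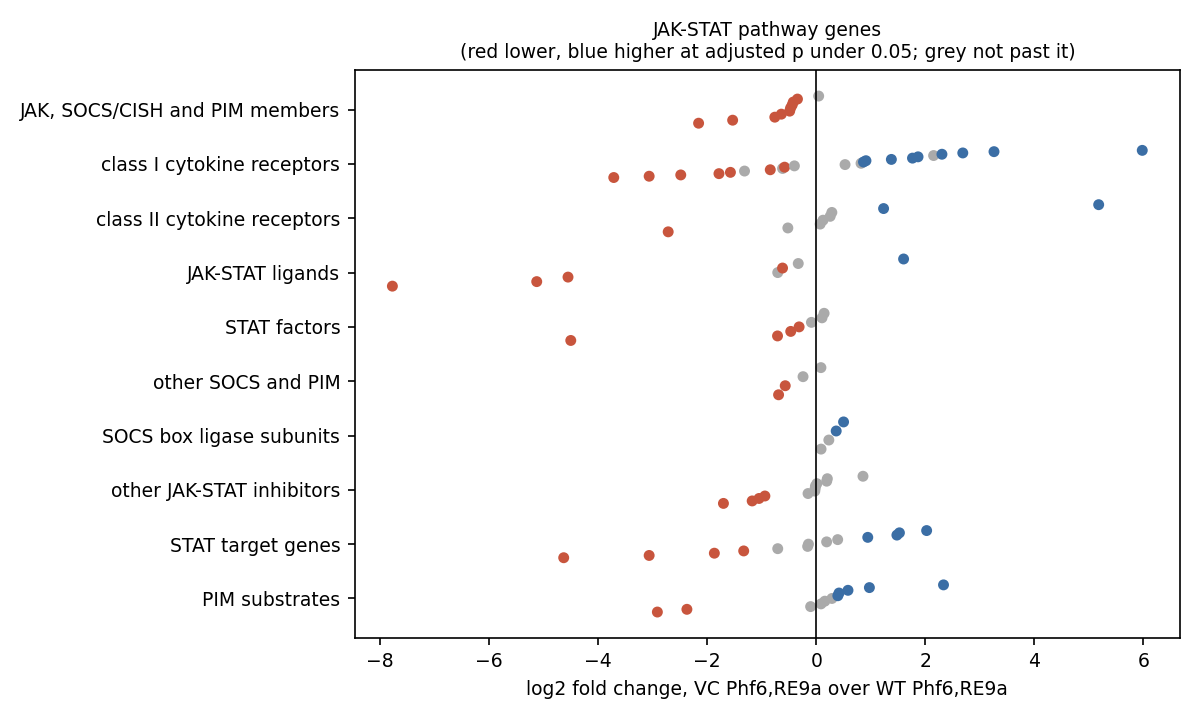
Log2 fold change, VC over WT libraries (horizontal axis) for each tested gene of the 10 groups named at the left, 1 point per gene, red (lower) or blue (higher) where the edgeR adjusted p was under 0.05, otherwise grey; small vertical shifts only part the points. Il22ra1 is left out because it had 0 counts in WT libraries, and the 10 genes in the top line lie between -2.16 and 0.04 while the receptor genes lie on both sides of 0.

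Markers of cell types also differed between the same groups, in which 22.7% of all tested genes were lower and 21.5% higher in VC libraries. Mast cell and basophil markers were lower for 5 of 6 genes, with a summed level of 5146 to 7719 FPKM in WT and 1025 to 1206 FPKM in VC libraries. Neutrophil markers were higher for 6 of 6 genes (168 to 504 FPKM against 1070 to 4067 FPKM) and erythroid markers for 7 of 7 (1751 to 2714 FPKM against 5524 to 6445 FPKM). Macrophage markers were higher for 2 of 6 genes, from 15.9 to 18.5 FPKM in WT and 24.6 to 28.5 FPKM in VC libraries. Of the progenitor markers 2 of 6 were lower, Kit and Cd34, and 1 was higher, Mpo, with a median log2 fold change of -0.03. Kit, the stem cell factor receptor, was at 270.0 ± 53.4 FPKM in WT and 30.3 ± 7.92 FPKM in VC libraries. Mpo went the other way, from 10.5 ± 8.03 FPKM in WT to 38.7 ± 12.3 FPKM in VC libraries. Ptprc, which encodes CD45, was detected in each library with 180 to 961 counts. B cell markers summed to 0.367 to 0.739 FPKM in WT and 4.10 to 10.3 FPKM in VC libraries (4 of 4 tested higher), T cell markers to 0.365 to 0.513 and 2.05 to 2.83 FPKM (1 of 1 tested higher), and stromal and endothelial markers to 0.242 to 0.599 and 1.04 to 1.28 FPKM (1 of 2 tested higher). The T cell genes Cd3d, Cd3e and Cd3g had at most 6 counts in any library. The part of these shifts in the changes of the JAK, SOCS/CISH and PIM genes was not tested.

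**Figure D5:**
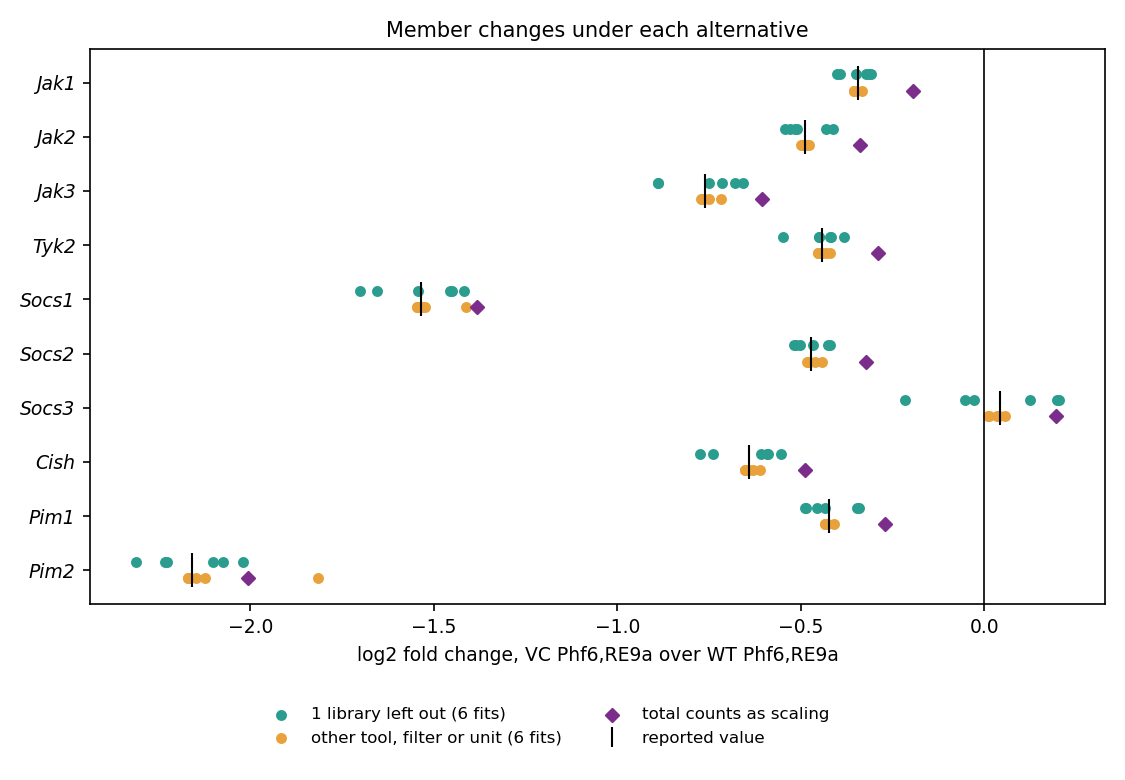
Log2 fold change of each of the 10 genes (horizontal axis) under 13 alternatives, with 6 fits that leave out 1 library in green, 6 fits with another tool, filter or unit in orange, scaling by total counts in purple and the reported value as a black bar. Socs1 stays between -1.70 and -1.38 and Pim2 between -2.31 and -1.82, while Socs3 lies on both sides of 0.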

How the data were processed

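Total RNA of sorted GFP+ bone marrow cells was made into libraries with an Illumina TruSeq RNA kit. The authors deposited 1 table of the series with gene-level read counts and FPKM for 6 libraries, and both units were used. The submitters' processing notes list Bowtie 0.12.0 and mm8, but 54409 of the 54532 gene identifiers are in GENCODE M21 (GRCm38), 98.33% of them at identical positions, and coordinates were therefore read as GRCm38. The counting tool and strand setting are not given in the sources used here. In the genes checked, the deposited FPKM equalled count over gene length over a library size recovered from these values. That size was 0.916 to 1.074 of the library's total count, and how the authors set it was not tested. The authors' group means, fold changes and p-values were not used.

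Counts were tested with edgeR 4.0.16 in R 4.3.3 (glmQLFit and glmQLFTest, TMM scaling, filterByExpr, no covariates, 3 against 3 libraries, Benjamini-Hochberg adjustment over 14169 genes). The script was tested on simulated counts. Alternatives were DESeq2 1.42.0 (which the study's methods name), RLE size factors, other count filters, an adjusted p under 0.01, a 2-fold minimum, limma 3.58.1 on log2(FPKM + 1) and log2(FPKM + 0.1), leaving out each library and, chosen after seeing the data, total counts. Family sums, shares and ratios were compared on FPKM with exact two-sided permutation tests, none of which can go below 0.1 with 3 against 3 libraries, so no adjustment was made. Promoter windows came from RefSeq on GRCm38.p6. The genes, the pathway and marker lists and the tests were chosen with earlier results of these data known. Named were the 10 genes, Phf6, any gene of lists with up to 7 genes and, per pathway list, the 2 tested genes with the smallest p and the 2 with the highest mean FPKM. Tceb1 and Tceb2, older names of Eloc and Elob, matched no gene. Values of some single list genes are not reported here. Floors from counts cover counting error only, whereas the 95% intervals come from the edgeR fit and include the spread between libraries.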

Additional observations from a re-analysis of the deposited data

How the results depend on the processing

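Of the 10 genes, Jak2, Jak3, Tyk2, Socs1, Socs2, Cish and Pim2 kept their direction and call under all 13 alternatives tried for single genes. The count of lower genes fell from 9 to 2, Socs1 and Pim2, when a 2-fold change was required, was 6 at an adjusted p under 0.01 and was 7 to 9 under the other alternatives, and 0 were higher under the 13 alternatives. The calls on Jak1 and Pim1 were lost in 2 and 3 fits without 1 library and under total counts, as given with each gene. Socs3 ranged from -0.22 to 0.20 when 1 library was left out, reversed without WT library 1 (-0.05), WT library 3 (-0.03) and VC library 12 (-0.22), and was called in none. Of the other named genes, Ptpn6 reversed without WT library 1 or VC library 13 (range without 1 library -0.12 to 0.049) and under total counts (0.12), and Pim3 (-0.083 to 0.24) reversed without WT library 3. Stat6 reversed under total counts (0.060). Each reversed value was not called. The cause was not tested. Leaving out 1 library gave 2179 to 3132 higher and 2511 to 3338 lower genes and -1.76 to -1.59 for Phf6. No paired analysis was possible because the groups share no replicate number (1, 2 and 3 against 11, 12 and 13). With 3 libraries a group the exact test cannot go below 0.1, and Socs3 rests on 139 to 245 counts a library.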

Other observations

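Genes downstream of STAT factors and PIM kinases moved in both directions, as did all tested genes. Of 13 STAT target genes tested, 4 were higher and 4 lower in VC Phf6,RE9a libraries, beside 21.5% and 22.7% of all tested genes. The median log2 fold change of the 13 was -0.14. By limma on log2(FPKM + 1), 2 of them were higher. Bcl2, which blocks apoptosis, was at 37.2 ± 9.79 CPM in WT and 1.49 ± 0.215 CPM in VC libraries (SD, n = 3 each), a log2 fold change of -4.63 (SE 0.25). Fos fell by 1.87 on the log2 scale (SE 0.23, edgeR adjusted p = 0.000614) and Junb by 1.33 (SE 0.27, edgeR adjusted p = 0.00624), and both encode AP-1 subunits. Ccnd3, which encodes cyclin D3, rose from 156 ± 15.7 CPM to 300.3 ± 32.7 CPM (log2 fold change 0.94, SE 0.11, edgeR adjusted p = 0.000584).

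Of 11 genes whose proteins are PIM substrates, 5 were higher and 2 lower, beside 21.5% and 22.7% of all tested genes. Their median log2 fold change was 0.29. Cdkn1a, which encodes the cell cycle inhibitor p21, fell from 731 ± 240.3 CPM to 96.9 ± 31.3 CPM (log2 fold change -2.92, SE 0.30, edgeR adjusted p = 0.000281). Eif4ebp1, which encodes a repressor of cap-dependent translation, rose from 27.4 ± 2.71 CPM to 53.9 ± 2.15 CPM (log2 fold change 0.97, SE 0.10, edgeR adjusted p = 0.000341). Eif4b, a translation initiation factor, had a log2 fold change of 0.42 (SE 0.14, edgeR adjusted p = 0.0386), which was not called without VC library 11, 12 or 13 (adjusted p = 0.0973, 0.107 and 0.0808). The count of higher substrates was 3 in each fit that left out 1 of these 3 libraries.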
